A study of Mus musculus with 48 samples.

Results

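The transcripts described here are those of the cytosolic ribosomal proteins, the proteins of the large and small subunits of the ribosome that translates nuclear-encoded mRNA. They were chosen by gene symbol: Rpl or Rps, an optional p, a number, at most 1 further letter (a, x or l), and Rpsa. The rule found 81 genes of the 23284 in the count table, 49 of the large subunit and 32 of the small subunit. No measured value entered the choice. Rpl10l, a retrocopy of Rpl10 known from testis, was listed at 0 in every library, and 80 genes were left for comparisons between fractions. Levels of 6 of the genes (Rps27a, Rps15, Rpl34, Rpl26, Rpl30 and Rps27) carried decimals, as counters that divide reads shared with near-identical copies give, so that their values are uncertain.

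A ribosome holds most of its proteins in equal numbers, and the mRNAs of these proteins are among the most abundant in most cells. They begin with a 5′ terminal oligopyrimidine tract (TOP), a C followed by a run of pyrimidines, through which mTOR and the RNA-binding protein Larp1 raise or lower the translation of all of them together. In translating ribosome affinity purification, a tagged ribosomal protein is expressed in a chosen cell type and its mRNA is recovered with the tagged ribosomes. Here the tagged protein was L10a, the product of Rpl10a, fused to green fluorescent protein (GFP).

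The study compared young and adult female mice exposed before birth to dihydrotestosterone (DHT), an androgen that aromatase does not convert, or to vehicle. The mice carried Cre driven in neurons that make gonadotropin-releasing hormone (GnRH), whose secretion controls fertility, and a GFP-tagged L10a allele behind a floxed stop; every group carried that floxed allele. Libraries came from preoptic area punches, either from the immunoprecipitate (IP), labelled as GnRH-enriched, or from the supernatant left after it, labelled as GnRH-depleted. The IP comprised 6 adult DHT, 5 adult vehicle, 6 young DHT and 6 young vehicle libraries, and the supernatant the same numbers. A further pair of young libraries, 1 IP and 1 supernatant, came from mice with the floxed tag and no Cre. Adults were in diestrus, ages in days are not given in the labels, and whether a replicate was 1 mouse or a pool is not given either. The p-values therefore speak only for the spread among the libraries at hand. Which cells of the offspring had expressed the Cre at any stage is also not given.

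The first 30 bases around the transcription start are shown for 6 genes on which the comparison between fractions turns: the 3 with the largest rise in the IP, the gene of the tagged protein, and a pair with little difference between fractions. Sequences are from RefSeq on GRCm38.p6, 5′ to 3′ on the gene's own strand, 15 bases before the start and 15 from it; capitals mark a pyrimidine run (the letters CTTTC, the letters CTTCC or the letters CTCTT) that lies within the first 10 bases from the start on the sense strand.
Rps27: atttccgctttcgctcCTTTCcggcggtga
Rpl39: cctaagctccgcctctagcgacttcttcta
Rpl41: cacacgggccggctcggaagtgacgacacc
Rpl10a: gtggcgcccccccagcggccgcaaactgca
Rpl28: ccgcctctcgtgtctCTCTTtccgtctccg
Rplp0: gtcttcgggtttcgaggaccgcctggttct
The windows lie at chr3:90213634-90213663 on the minus strand (Rps27), chrX:37085208-37085237 on the minus strand (Rpl39), chr10:128549154-128549183 on the minus strand (Rpl41), chr17:28328456-28328485 on the plus strand (Rpl10a), chr7:4792950-4792979 on the plus strand (Rpl28) and chr5:115559452-115559481 on the plus strand (Rplp0). Of 61 genes with a RefSeq window, 15 (24.6%) held such a run in the first 10 bases, against 4.36% of the 27025 genes with a window. CCGGAAG, the core bound by ETS factors, was found on either strand of the 300-base window in 26 (42.6%), against 9.93% of all genes; its reverse complement contains CTTCC, so that the counts overlap. A match describes the letters only, and annotated starts can lie some bases away from those used in these neurons.

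The IP libraries held 28672561 to 47054031 counts and the supernatants 28136004 to 55479453, so that 1 CPM, 1 count in 1000000 counts of the library, stood for at least 28.1 counts. The IP label was checked with Gnrh1, which ran from 664 to 16067 CPM in the IP and from 19.9 to 50.4 CPM in the supernatant. Without Cre it was 61.6 CPM in the IP, against 38.2 CPM in its supernatant. Of 10 astrocyte markers none was higher in the IP and 7 were lower, where 24.4% of all genes tested were higher and 21.7% lower; of 10 oligodendrocyte markers 1 was higher and 5 lower, of 10 microglia markers 1 and 3, of 9 neuron markers 4 and 2, and of 10 endothelial markers none either way. The summed level of the astrocyte markers ran from 719 to 1556 CPM in the IP and from 1175 to 1743 CPM in the supernatant. The last 10 of the sample numbers in the labels were young libraries of both fractions and treatments, 5 IP and 5 supernatant; what the numbers stand for is not given in the labels. These stood apart in the supernatant, where Malat1, a nuclear long noncoding RNA, ran from 5661 to 6722 CPM in the 5 of them, against at most 5130 CPM in the other 7 young libraries. Results that rest on them are given with and without them.

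Summed over the 81 genes, ribosomal protein transcripts made up 1.55 ± 0.45% of the library in the IP and 1.02 ± 0.11% in the supernatant (SD, n = 23 each). Among adult DHT IP libraries the share ran from 0.723% to 1.86% with a median of 1.55%, and in the 5 adult vehicle IP libraries it was 1.62%, 0.984%, 1.92%, 1.98% and 2.09%. In young IP libraries it ran from 1.08% to 1.91% (median 1.52%) after DHT and from 1.09% to 2.79% (median 1.34%) after vehicle. All 23 supernatants lay between 0.849% and 1.28%, so the fractions overlapped, and the IP was the more variable fraction. Across the IP libraries the coefficient of variation of a single gene had a median of 32.7%, lowest for Rpl4, whose protein lines the peptide exit tunnel, at 16.6%. Across the supernatants the median was 13.2%, lowest for Rplp0, the base of the stalk that recruits translation factors, at 6.18%.

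**Figure D1:**
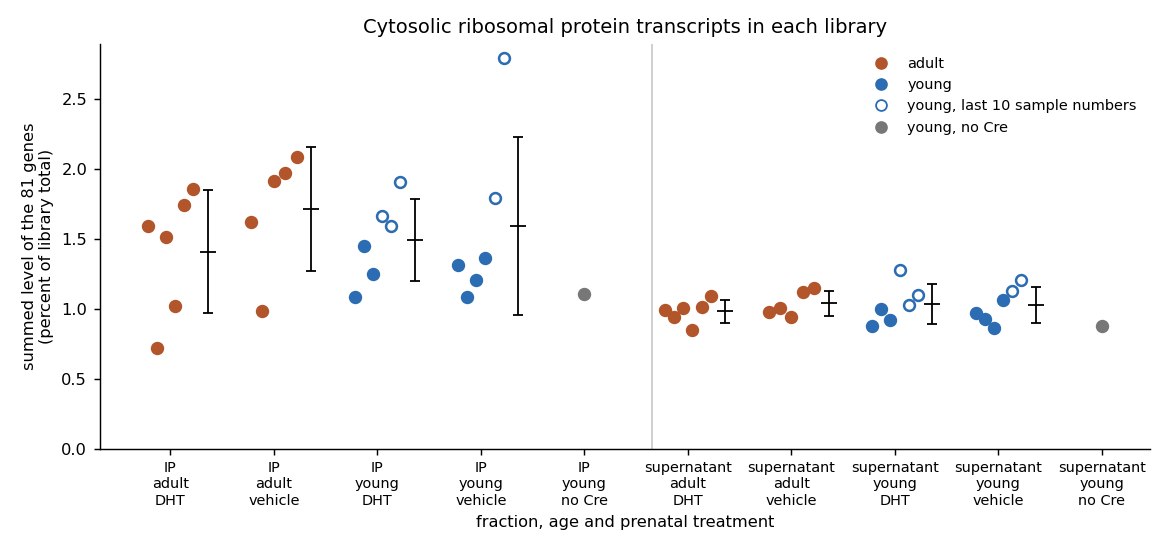
Summed level of the 81 ribosomal protein genes (vertical axis, percent of the library total) in each library, by fraction, age and prenatal treatment; bars give the mean and SD of groups of 5 or 6. The IP libraries spread from 0.723% to 2.79%, and the supernatants from 0.849% to 1.28%; open points are the young libraries of the last 10 sample numbers.

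The spread in the IP was shared by nearly all of the genes. In young vehicle IP replicate 6, which was 1 of the last 10 sample numbers, 74 of the 78 genes with a level in every library reached their highest value of the 23 IP libraries. In adult DHT IP replicate 2, 70 of the 78 had their lowest. The share of all genes with their highest or lowest value in these libraries was not taken. Whether the counts are particular to ribosomal protein genes is therefore not known. Within the young IP, the 5 libraries of the last 10 sample numbers ran from 1.60% to 2.79% and the other 7 from 1.08% to 1.45%, with no overlap. The IP without Cre, at 1.10%, lay inside the range of those 7, and the supernatant without Cre was at 0.875%.

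In adult IP libraries the summed level went with the level of Gnrh1. The 3 adult libraries lowest in Gnrh1, adult DHT replicate 2 (664 CPM), adult vehicle replicate 2 (1951 CPM) and adult DHT replicate 4 (2503 CPM), were also the 3 lowest in ribosomal protein transcripts, at 0.723%, 0.984% and 1.02%. The 3 adult libraries highest in Gnrh1, adult vehicle replicate 5 (16067 CPM), adult DHT replicate 6 (13176 CPM) and adult vehicle replicate 4 (10542 CPM), stood at 2.09%, 1.86% and 1.98%. Among the young IP libraries outside the last 10 sample numbers, Gnrh1 ran only from 1751 to 3514 CPM. In a bulk fraction, a different mix of cells and a different amount of these mRNAs per cell cannot be told apart, and the part that the yield of the IP had in the comparisons below was not tested.

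**Figure D2:**
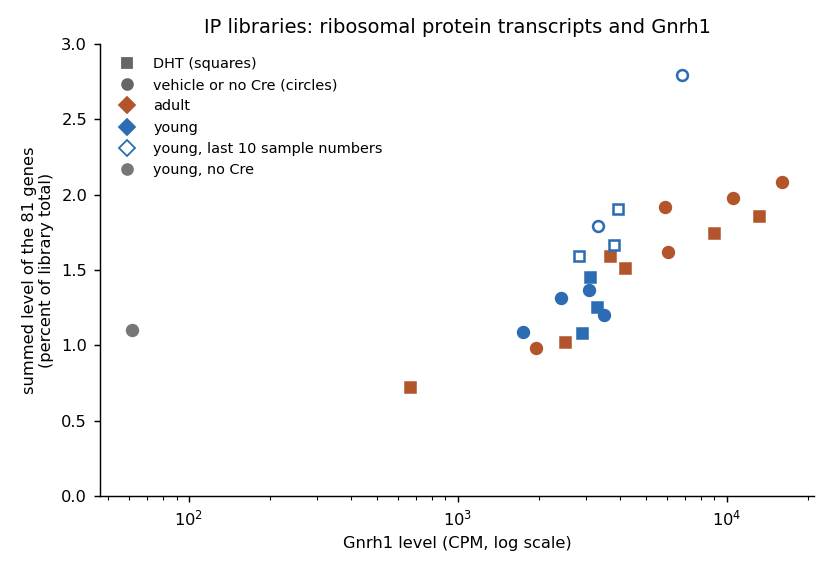
Summed level of the 81 genes (vertical axis, percent of the library total) against Gnrh1 (horizontal axis, CPM on a log scale) in the 24 IP libraries. The 3 adult libraries lowest in Gnrh1 lie between 0.723% and 1.02%, and the library without Cre, at 61.6 CPM of Gnrh1, lies at 1.10%.

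Ribosomal protein transcripts were higher in the IP than in the supernatant over the 4 conditions of age and treatment. Of the 80 genes tested, 75 rose and none fell at an adjusted p below 0.05 (edgeR's quasi-likelihood test on 46 libraries, Benjamini-Hochberg adjustment over 16660 genes), where 24.4% of all genes tested rose and 21.7% fell, 46.1% in either direction. The median log2 fold change of the 80 was 0.66, against -0.003 over all genes tested. In none of the 80 did all 23 IP libraries lie above all 23 supernatants, a separation that 0.228% of all genes showed. Both subunits took part: 43 of the 48 large subunit genes tested rose, with a median of 0.68, and all 32 small subunit genes rose, with a median of 0.65. The fractions also differed in general measures: Malat1 ran from 238 to 1536 CPM in the IP and from 1982 to 6722 CPM in the supernatant, with no overlap, and the share of genes at 0 counts averaged 32.2% in the IP and 23.6% in the supernatant. Malat1 was lower in the IP without Cre as well, at 1205 CPM against 3579 CPM in its supernatant. The part these measures had in the rise was not tested.

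Rpl10a, the gene of the tagged protein, ran from 68.0 to 301 CPM with a median of 187 CPM in the IP, and from 74.3 to 114 CPM with a median of 92.7 CPM in the supernatant. The fractions overlapped only through adult libraries low in Gnrh1, adult DHT replicates 2 and 4 and adult vehicle replicate 2, at 68.0, 105 and 106 CPM. The rise was 1.01 ± 0.10 on the log2 scale (SE, adjusted p = 1.45e-11 by edgeR), the sixth largest of the 80. The sources used here do not say whether the transcript of the tagged allele was counted with Rpl10a.

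The largest rise was that of Rps27, a zinc-finger protein of the small subunit, from 14.3 to 226 CPM (median 82.1) across the IP and from 7.62 to 56.8 CPM (median 36.2) across the supernatant. This was a log2 fold change of 1.54 ± 0.22 (SE, adjusted p = 1.04e-07 by edgeR). The ranges overlapped, the supernatant values of Rps27 were themselves scattered, and its counts hold shared reads. Rps27l, its p53-inducible paralog, carried whole counts and ran from 17.5 to 121 CPM (median 52.3) in the IP and from 19.4 to 39.7 CPM (median 28.0) in the supernatant. It rose by 1.10 ± 0.12 on the log2 scale (SE, adjusted p = 2.62e-10 by edgeR), and 4 IP libraries, adult DHT replicates 2 and 4, adult vehicle replicate 2 and young DHT replicate 1, reached into the supernatant range.

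Next in the large subunit came a pair of genes for its shortest proteins. Rpl39, which lines the peptide exit tunnel, ran from 16.1 to 144 CPM (median 61.5) in the IP and from 18.2 to 37.6 CPM (median 26.3) in the supernatant. Rpl41, a peptide at the bridge between subunits, ran from 87.3 to 833 CPM (median 350) in the IP and from 120 to 222 CPM (median 157) in the supernatant. In both, most IP libraries lay above every supernatant, with the lowest from adult DHT replicate 2 and the highest from young vehicle replicate 6. The log2 fold changes were 1.28 ± 0.14 and 1.23 ± 0.15 (SE). Rpl37a (1.04), Rpl17 (0.96), Rpl27a (0.96) and Rpl11 (0.95), the last a component of the 5S particle that also binds Mdm2, completed the large subunit genes among the 10 largest rises, and Rps18 (0.95) was the other from the small subunit.

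At the other end, 5 genes did not pass the test, and all 5 belong to the large subunit. Rpl28, a protein of the mammalian ribosome with no counterpart in budding yeast, ran from 72.1 to 253 CPM (median 136) in the IP and from 103 to 177 CPM (median 129) in the supernatant. The ranges covered each other, with a log2 fold change of 0.15 ± 0.10 (SE, adjusted p = 0.206 by edgeR); its exons overlap those of Ube2s, and these counts cannot be assigned to strands. Rpl26 (0.13 ± 0.24) and Rpl30 (0.32 ± 0.14) hold shared reads. Rpl3l, a paralog of Rpl3 known from heart and skeletal muscle, had at most 6.25 CPM in any IP and 1.67 CPM in any supernatant library (0.74 ± 0.50), and Rpl39l, a paralog of Rpl39 known from testis, stayed under 1 CPM in every library (0.51 ± 0.71).

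The smallest rises that passed were those of Rps9 (0.30), a protein of the mRNA entry site, Rplp0 (0.33) and Rpl8 (0.37), which lies next to the peptidyl transferase centre. Rplp0 ran from 240 to 580 CPM (median 332) in the IP and from 261 to 335 CPM (median 290) in the supernatant, and its ranges overlapped widely. The partners of Rplp0 in the stalk, Rplp1 and Rplp2, were also in the lower part of the list, at 0.47 and 0.49.

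**Figure D3:**
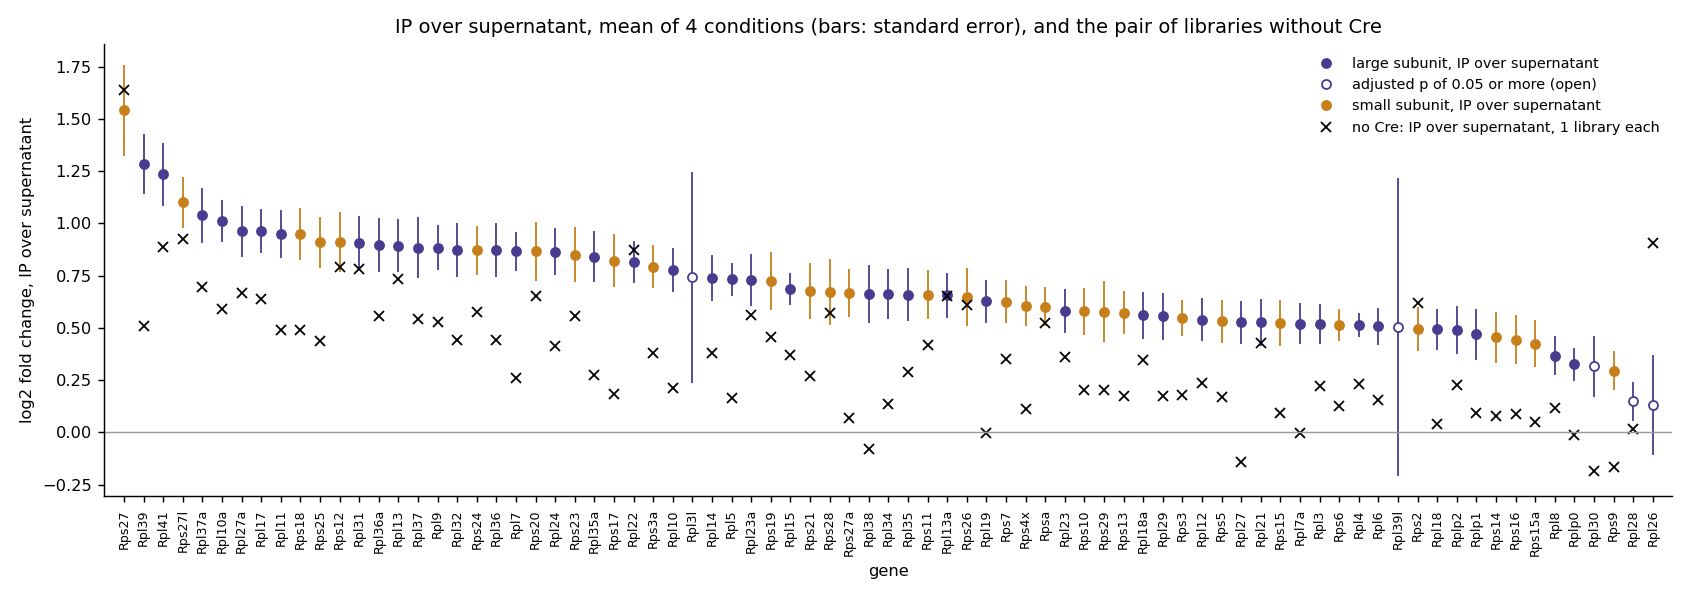
Log2 fold change of IP over supernatant (vertical axis) for 79 of the 80 genes tested, mean of 4 conditions, with its standard error; open points did not pass the test. Crosses give the log2 ratio of the pair of libraries without Cre; Rps27 leads both.

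Within each condition the direction was the same, with fewer calls. In adult DHT mice 43 of the 80 rose (median log2 fold change 0.63), where 11.6% of all genes tested rose and 9.83% fell, 21.5% in either direction; limma-voom called 24, where it called 7.24% of all genes higher. In adult vehicle mice 68 rose (median 0.85), where 12.8% of all genes rose and 11.2% fell, 24.0% in either direction. In young DHT mice 40 rose (median 0.58), where 10.7% of all genes rose and 9.21% fell, 20.0% in either direction. In young vehicle mice 48 rose (median 0.65), where 11.3% of all genes rose and 10.5% fell, 21.9% in either direction. None of the 80 fell in any condition, and 30 of the 80 were called in all 4, Rpl10a, Rps27, Rps27l, Rpl39 and Rpl41 among them; of all genes tested, 5.07% were called higher in all 4. The counts moved with single libraries: without adult DHT IP replicate 2, 67 were called in adult DHT mice, and without adult DHT IP replicate 5 or 6, 27. Without young vehicle IP replicate 6, 21 were called in young vehicle mice, with a median of 0.33. Without young DHT IP replicate 6 or young DHT supernatant replicate 1, 23 and 25 were called in young DHT mice.

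The young conditions depended on the last 10 sample numbers. Without those libraries, 3 genes were called in young DHT mice (Rpl22, Rpl10a and Rpl4; median over the 80 of 0.38), where 4.15% of all genes tested rose. In young vehicle mice 5 were called (Rpl10a, Rps27l, Rpl31, Rpl17 and Rpl5; median 0.33), where 6.76% of all genes rose. Neither count of calls, 3 or 5 of the 80, exceeded the share over all genes. Within the last 10 sample numbers alone, 34 were called after DHT (median 0.63), where 6.26% of all genes rose, and 56 after vehicle (median 1.06), where 4.82% did. The vehicle libraries there were only replicates 5 and 6 of each fraction, and the DHT libraries replicates 4, 5 and 6. Over its supernatants, young vehicle IP replicate 6 had a median log2 ratio of 1.30, against 0.56 for replicate 5. Removal left vehicle replicates 1 to 4 and DHT replicates 1 to 3. All these groups were small, and the part of group size in the counts was not tested. Rpl10a passed in both young conditions without the last 10 sample numbers, with log2 fold changes of 0.79 (adjusted p = 0.0445 by edgeR) after DHT and 0.84 (adjusted p = 0.00774 by edgeR) after vehicle.

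Whether the difference between fractions itself changed with age or treatment was tested by interaction. No gene of the 80 passed for adult minus young in DHT mice (0.882% of all genes passed, 0.15% higher and 0.732% lower) or in vehicle mice (1.04%, 0.264% higher and 0.774% lower), nor for DHT minus vehicle in adult mice (0.114%, 0.084% higher and 0.03% lower) or in young mice (0.0%). The medians over the 80 were 0.06, 0.21, -0.25 and -0.10 in that order. They rested on single libraries: for age in DHT mice the median ran from -0.04 without adult DHT IP replicate 6 to 0.20 without adult DHT IP replicate 2, and for age in vehicle mice it was 0.52 without young vehicle IP replicate 6. For treatment in adults it was -0.10 without adult DHT IP replicate 2, and for treatment in young mice 0.21 without young vehicle IP replicate 6. None had an unadjusted p below 0.05 by edgeR in any of the 4, and DESeq2 and limma-voom called none either. The smallest unadjusted p values were those of Rpl27 (0.46 ± 0.30, SE, unadjusted p = 0.129) for age in vehicle mice, Rpl26 (0.79 ± 0.66) for age in DHT mice, Rpl39l (-3.67 ± 1.98) for treatment in adults and Rpl4 (0.13 ± 0.16) for treatment in young mice.

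The pair of libraries without Cre shows how far these transcripts were recovered in an IP with no tagged ribosome. Over the 78 genes, the log2 ratio of CPM, IP over supernatant, had a median of 0.35 and 71 lay above 0, where 53.9% of 15041 genes lay above 0 with a median of 0.07. With 1 library in each fraction there is no test. Rpl10a stood at 161 CPM in the IP (95% Poisson interval 156 to 165, counting error only) and 107 CPM in the supernatant (104 to 110), a log2 ratio of 0.59. Rps27 had the largest ratio, at 79.3 CPM in the IP against 25.5 CPM in its supernatant. The young vehicle libraries with Cre, taken as a log2 ratio of mean CPM, gave 1.74 for Rps27, against 1.64 without Cre, and 1.41 with Cre once the last 10 sample numbers were left out. For Rps27l the values were 1.02 with Cre, 0.78 with Cre and without those libraries, and 0.93 without Cre. For Rpl10a they were 1.00, 0.89 and 0.59 in the same order, and for Rpl41 1.26, 0.91 and 0.89. Over the 78 genes the median was 0.61 with Cre, 0.37 with Cre and without those libraries, and 0.35 without Cre. Of the 78, 75 genes were higher with Cre than without in all young vehicle libraries, and 46 when the last 10 sample numbers were left out. How many of all genes were higher with Cre was not taken, so these 2 counts are not read as a trait of the ribosomal protein genes.

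Set beside the 12 young IP libraries with Cre, the IP without Cre was below all 12 for 19 of the 78 genes, within their range for 59 and above it for none. Against the 7 of them outside the last 10 sample numbers it was below for 19, within for 57 and above for 2, Rpl26 and Rps2. Rpl39 was among the 19, at 35.4 to 144 CPM with Cre and 35.1 CPM without, as were Rpl4, Rps3 and Rps6. Rpl10a, Rps27, Rpl41 and Rps27l were within the range. The supernatant without Cre was low as well, below all 12 young supernatants with Cre for 15 of the 78 and above them for none. The share of all genes placed in these ways was not taken. The counts are therefore not read as a trait of the ribosomal protein genes.

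A median ratio over the 78 genes was also taken for each IP library over the mean supernatant of its condition and set of sample numbers. It ran from -0.52 to 0.99 on the log2 scale in the 6 adult DHT libraries and from -0.11 to 1.01 in the 5 adult vehicle libraries. It ran from 0.49 to 1.30 in the 5 young libraries of the last 10 sample numbers and from 0.18 to 0.61 in the other 7, a range that holds the 0.35 of the pair without Cre. In adult DHT replicate 2 only 4 of the 78 genes were above the supernatant mean, and in adult vehicle replicate 2 only 27, whereas the other adult libraries except DHT replicate 4 (45 of 78) had 76 or more above it. How many of all genes lay above the mean in each library was not taken. Whether these counts are particular to ribosomal protein genes is therefore not known.

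Per coding length, the genes kept nearly the same order in both fractions. Rpl41 was highest, at 4772 CPM per kb of coding sequence in the IP and 2130 in the supernatant, followed in both by Rpl13 (1212 and 678) and Rpl19 (792 and 540). Over 78 genes the levels per kb of the fractions had a Spearman correlation of 0.94, as a description of genes that share libraries. Lowest of the expressed genes were Rpl22, Rpl30 and Rpl26, the last at 11.6 CPM per kb in the IP and 11.1 in the supernatant. Rpl41 has a coding length of only 75 nt, so that its level per kb rests on a length far below that of its mRNA.

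Genes with shorter coding sequences had larger differences between fractions. The Spearman correlation of the log2 fold change with coding length was -0.32 over 78 genes, and -0.25 for the log2 ratios of the pair without Cre. The 20 genes with coding sequences of 75 to 369 nt had a median log2 fold change of 0.76, and the 19 of 624 to 1257 nt one of 0.60. Genes for mitochondrial ribosomal proteins showed the same, with -0.50 over 76 genes, as did all 15483 genes with a length, at -0.22. Over 6849 other genes with coding sequences of 75 to 1257 nt the median log2 fold change was 0.12, and over the 80 ribosomal protein genes tested it was 0.66. These are descriptions across genes measured in the same libraries, and the part that fragment length or the library kit had was not tested. With a pyrimidine run at the annotated start, 15 tested genes had a median log2 fold change of 0.66, and 43 without it one of 0.72.

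**Figure D4:**
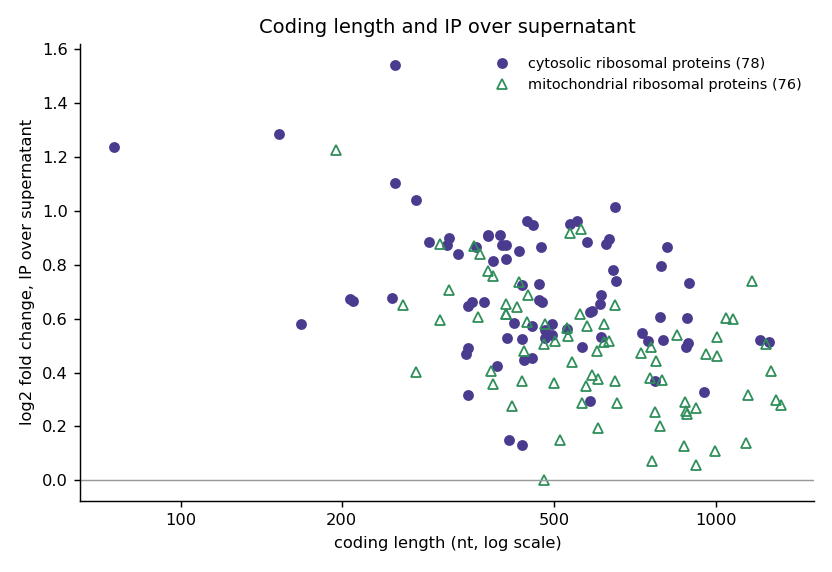
Log2 fold change of IP over supernatant (vertical axis) against coding length (horizontal axis, nt on a log scale) for 78 cytosolic and 76 mitochondrial ribosomal protein genes, 1 point a gene. The cytosolic genes with the shortest coding sequences, Rpl41 and Rpl39, are at 1.23 and 1.28, and both sets slope downwards.

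Genes of neighbouring functions were read from lists, beside the 24.4% of all genes tested that rose and the 21.7% that fell. Of 76 mitochondrial ribosomal protein genes, 71 rose in the IP and none fell, with a median log2 fold change of 0.48, Mrpl33 (1.22) highest; in the pair without Cre the same 76 had a median log2 ratio of 0.30, with 77.6% above 0. Of the ribosomal proteins whose names fall outside the symbol rule, 5 of 6 rose, among them Rpl22l1 (1.03), Rpl36al (0.78), Gnb2l1 (0.50), which encodes the scaffold Rack1, and Fau (0.47), whose product is made as a fusion with a ubiquitin-like protein. Rpl7l1 was at -0.08. Of 24 elongation factors and other TOP mRNAs, 19 rose and 3 fell (median 0.44). Npm1, a nucleolar chaperone of ribosome assembly, rose by 0.84 and Tpt1, the translationally controlled tumour protein, by 0.65, while Eef1a2, the elongation factor isoform of mature neurons and muscle, fell by 2.83.

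In the machinery that builds and controls ribosomes, genes moved both ways, as 24.4% of all genes tested rose and 21.7% fell. Of 28 initiation factor genes 16 rose and 5 fell, with a median of 0.23, and of 47 ribosome biogenesis genes 20 rose and 10 fell, with a median of 0.14. Among the biogenesis genes, Polr1d, a subunit shared by RNA polymerases I and III, rose by 0.92, and Tcof1, a nucleolar factor for ribosomal DNA transcription, fell by 0.73. Of 15 regulators of TOP mRNA translation 5 rose and 4 fell. Rps6kb2, which encodes a kinase of Rps6, rose by 1.00 and Deptor, an inhibitor of mTOR, fell by 0.85, and the values of Larp1 and Mtor were -0.03 and 0.13 with adjusted p of 0.802 and 0.410 by edgeR.

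Prenatal DHT was then compared with vehicle within each age and fraction. No ribosomal protein gene of the 79 tested was called in adult IP (0.00629% of all genes tested were called), young IP (0.0%), adult supernatant (0.0%) or young supernatant (0.0%). None had an unadjusted p below 0.05 by edgeR in any of these 4 comparisons, and DESeq2 and limma-voom called none. A p that misses the threshold does not show that the levels were alike, and in the IP the spread was wide.

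In adult IP, 76 of the 79 genes were lower after DHT, with a median log2 fold change of -0.30, against 0.001 over all genes tested. Without adult DHT IP replicate 2 the median was -0.17, and without adult vehicle IP replicate 2 it was -0.44, each of these being the library of its group lowest in Gnrh1. Rps3, a small subunit protein at the mRNA entry, had the smallest p. It ran from 191 to 400 CPM (median 357) after DHT, and was 393, 277, 403, 491 and 495 CPM in the vehicle libraries. Its groups overlapped, at a log2 fold change of -0.38 ± 0.21 (SE, adjusted p = 0.688 by edgeR). Rps27l (-0.48 ± 0.30) and Rpl3 (-0.37 ± 0.24) came next.

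In young IP the median over the 79 genes was -0.14 and changed sign to 0.17 without young vehicle IP replicate 6. The smallest p values were those of Rps27l (-0.29 ± 0.29), Rpsa (-0.22 ± 0.22), the laminin receptor of the small subunit, and Rpl4 (0.11 ± 0.13). In the supernatant the medians were -0.08 in adults and -0.02 in young mice. Rps2 (-0.17 ± 0.09, unadjusted p = 0.0561 by edgeR), Rpl27a (-0.18 ± 0.10) and Rpl26 (-0.68 ± 0.45) had the smallest p values in adults, and Rps26 (-0.14 ± 0.11), Rpl22 (-0.10 ± 0.09) and Rpl10a (-0.08 ± 0.08) in young mice.

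Adult and young mice were compared within each treatment. In the IP no gene of the 79 was called in DHT mice, where 3.8% of all genes rose and 3.32% fell (7.12% in either direction), or in vehicle mice, where 2.04% rose and 1.79% fell (3.83%). By limma-voom 5 were called in vehicle mice and by DESeq2 none. The shares above are those of edgeR, and the share of all genes called by limma-voom is not given here. In vehicle mice Rpl4 (0.36 ± 0.14) and Rps6 (0.41 ± 0.17), the target of the S6 kinases, had unadjusted p values of 0.016 and 0.0283 by edgeR. Rpl4 was 525, 486, 677, 626 and 735 CPM in adult vehicle IP, and ran from 400 to 657 CPM (median 466.3) in young vehicle IP. The groups overlapped through young replicate 5, at 657 CPM, and adult replicate 2, at 486 CPM. Without the last 10 sample numbers Rpl4 passed (0.52, adjusted p = 0.0444 by edgeR) and the median over the genes was 0.55, against 0.12 with them. In the comparison of all adult and young vehicle IP libraries, 4 of 10 oligodendrocyte markers fell and none rose (median log2 fold change -0.95), and Gnrh1 was at 1.23 and not called. The summed neuron markers ran from 7011 to 8520 CPM in adult and from 11461 to 37629 CPM in young vehicle IP, with no overlap. Of the 9 neuron markers 1 fell and none rose (median 0.24). The part of these markers was not tested. In DHT mice no gene had an unadjusted p below 0.05 by edgeR, DESeq2 and limma-voom called none, and the smallest p was that of Rps2 (-0.51 ± 0.26). The median over the 79 in DHT mice was -0.06, and 0.23 without the last 10 sample numbers.

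In the supernatant a few genes differed with age. In DHT mice 5 of 79 fell in adults and none rose (10.5% and 9.47% of all genes tested, 19.9% in either direction), and in vehicle mice 5 fell and 1 rose (10.2% and 10.1%, 20.3% in either direction). These shares, 6.33% lower in each treatment, do not exceed those over all genes. The counts rested on single libraries: they ran from 2 without adult DHT supernatant replicate 2 or 4 or young DHT replicate 4 to 8 without young DHT replicate 3, and fell to 2 without adult vehicle replicate 2 or 3 or young vehicle replicate 4. Rpl29, a large subunit protein that also binds heparan sulfate, fell in both treatments. It ran from 63.5 to 86.6 CPM (median 72.2) in adult DHT supernatants and from 83.7 to 132 CPM (median 102) in young DHT supernatants, where the highest adult value passed only the lowest young one. It was 74.9, 73.7, 68.7, 87.5 and 81.6 CPM in adult vehicle supernatants and 93.5 to 112 CPM (median 109) in young vehicle supernatants, with no overlap; it was the only gene of the 79 so separated, a pattern that 5.4% of all genes tested showed. The log2 fold changes were -0.51 ± 0.09 (SE, adjusted p = 0.000281 by edgeR) in DHT mice and -0.49 ± 0.09 (adjusted p = 0.000619 by edgeR) in vehicle mice. Without the last 10 sample numbers they were -0.34 (adjusted p = 0.0317) and -0.45 (adjusted p = 0.00101). The young supernatant without Cre, at 73.9 CPM, lay with the adults and below all 12 young supernatants with Cre.

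Rps27l also fell in both treatments, by 0.42 ± 0.11 in DHT mice (SE, adjusted p = 0.0103 by edgeR) and by 0.41 ± 0.12 in vehicle mice (adjusted p = 0.0143 by edgeR). It ran from 19.4 to 29.9 CPM (median 22.4) in adult DHT supernatants and from 24.9 to 39.7 CPM (median 30.3) in young ones. It was 22.48, 20.98, 22.04, 25.77 and 27.96 CPM in adult vehicle supernatants and 25.5 to 36.1 CPM (median 31.8) in young ones. The ages overlapped in both treatments. Without the last 10 sample numbers its adjusted p was 0.221 in DHT mice and 0.0521 in vehicle mice.

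The other genes called with age were called in 1 treatment only, at adjusted p from 0.0237 to 0.0494 by edgeR. They were Rps13 (-0.29), Rpl27 (-0.24) and Rps16 (-0.28) in DHT mice, and Rpl7a (-0.28), Rpl22 (-0.26), Rpl30 (-0.41) and, higher in adults, Rpl3 (0.24) in vehicle mice. Each went the same way in the other treatment. Rps13, Rpl27 and Rps16 were at -0.20, -0.22 and -0.14 in vehicle mice. Rpl7a, Rpl22, Rpl30 and Rpl3 were at -0.24, -0.19, -0.32 and 0.12 in DHT mice. Whether the age difference itself differed between treatments was not tested. With a term for the last 10 sample numbers 4 rose and 1 fell in DHT mice, where 4.84% of all genes rose and 6.93% fell. In vehicle mice 6 rose and 2 fell with that term, where 10.7% of all genes rose and 11.5% fell. These counts were near or below the shares over all genes and are not read as a trait of the ribosomal protein genes. Rpl4 (0.22 and 0.26), Rpl3 (0.25 and 0.33), Rps6 (0.21 and 0.24) and Rps19 (0.30 and 0.36) rose in both treatments with the term. Rpl29 fell in both treatments with that term and without those libraries. Oligodendrocyte markers moved with age in the same supernatants: 7 of 10 were lower in adult DHT mice and 8 of 10 in adult vehicle mice, and their summed level ran from 2164 to 4713 CPM in adult DHT, 2232 to 3532 CPM in adult vehicle, 4583 to 6957 CPM in young DHT and 5024 to 6719 CPM in young vehicle supernatants. The part these cells had in the values of the ribosomal protein genes was not tested.

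**Figure D5:**
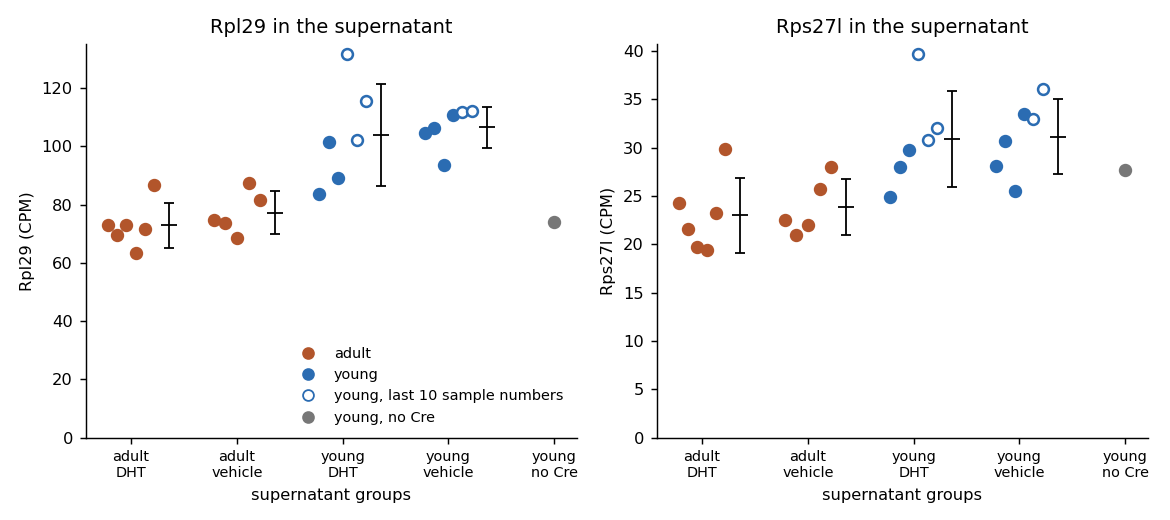
Level of Rpl29 and Rps27l (vertical axes, CPM) in each supernatant library by age and prenatal treatment; bars give the mean and SD, and open points are the last 10 sample numbers. Adult Rpl29 lies between 63.5 and 87.5 CPM, young Rpl29 with Cre between 83.7 and 132 CPM, and the young library without Cre at 73.9 CPM.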

How the data were processed

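Polyadenylated RNA was amplified with SMARTer v4 Ultra Low, a kit that does not mark the strand, according to the labels. The authors deposited an estimated count (expected count) for each gene and library; 98.5% of the values were whole, with no tolerance, and all were rounded here. TopHat2 2.0.13, Bowtie2 2.2.1, HTSeq 0.6.1, Cuffdiff 2.1.1 and the mm10 build are named per the submitters' processing notes. Which of these tools made the counts, and from which gene models, the sources used here do not state.

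Counts were fitted with edgeR 4.0.16 (R 4.3.3; TMM, filterByExpr with a minimum count of 10 and a minimum total of 15, robust quasi-likelihood test), the fractions in 1 fit of 46 libraries (16660 genes) and age and treatment in a fit of the 23 libraries of each fraction (15894 genes in the IP, 16286 in the supernatant), with Benjamini-Hochberg adjustment over all genes of a fit and calls at 0.05. The fits within the IP and within the supernatant held 79 of the ribosomal protein genes, without Rpl39l, which the fit of 46 libraries held. The standard error is the fold change over the square root of F. Libraries without Cre entered no fit. CPM is scaled to the library total. Coding lengths and exon overlaps come from GENCODE M21 (principal transcripts), start sequences from RefSeq. Alternatives were DESeq2 1.42.0, limma-voom (limma 3.58.1) with sample weights, RLE factors, library totals, no filter, a replicate block, only the groups compared, a term for or removal of the last 10 sample numbers, and leaving out each library. Later, with results in view, a fit of only those 10 was added. Simulated counts were used to check the scripts. Named genes are Rpl10a and the paralog pairs, the 10 largest rises between fractions or up to 5 called genes in each direction in other comparisons, the 3 smallest p values where none was called, the 3 highest and lowest per kb, and the exceptions, which were chosen after their values were seen, as were the genes named from the other lists. Some single genes are not reported here by name. The genes and lists were chosen with earlier results of these data known. Whole-library facts and intervals cover counting error only.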

Additional observations from a re-analysis of the deposited data

Results flagged for a closer look

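In 14 measures (12 of the genes and Gnrh1 by CPM, and the summed share) over the 8 groups with 5 or 6 libraries, 112 sets of values were looked at for a lowest or highest library far from the rest, and 11 stood out. Chance gives about 1 in 20 for independent sets. These sets share libraries and move together, so the count cannot be read against that rate. Of these, 8 belong to young vehicle IP replicate 6, the highest of its group: Gnrh1 at 6817 CPM, Rpl10a at 301 CPM, Rps27 at 226 CPM, Rpl39 at 144 CPM, Rpl41 at 833 CPM, Rps27l at 121 CPM, Rpl28 at 253 CPM and Rpl29 at 274 CPM. Adult vehicle IP replicate 2 was far below its group for Rpl29, at 62.1 CPM, and for Rpl7a, at 78.7 CPM. Young vehicle IP replicate 5 was far above its group for Rpl4, at 657 CPM. No difference between groups in the IP over supernatant ratio was found in the 4 interaction tests.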

How the results depend on the processing

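The 75 genes called between fractions in the mean of 4 conditions were 75 under DESeq2, limma-voom, RLE factors, library totals, no filter, the replicate block and the term for the last 10 sample numbers, 71 without those libraries, and 75 to 76 when each library was left out. Leaving out each library gave 27 to 67 calls in adult DHT, 53 to 72 in adult vehicle, 23 to 46 in young DHT and 21 to 57 in young vehicle mice. Without the last 10 sample numbers 3 and 5 were called in young DHT and young vehicle mice, and limma-voom called 24 in adult DHT mice; the cause was not tested. For adult over young vehicle IP, limma-voom called 5, the term for the last 10 sample numbers 3, and their removal 1, against 0. For adult over young supernatants, the term gave 5 calls in DHT mice (4 higher, 1 lower) and 8 in vehicle mice (6 higher, 2 lower), and removal 2 (1 each way) and 11 (8 higher, 3 lower). Apart from the term in supernatants, the shares of all genes called in these alternatives for age are not given here. In DHT mice the fit of the compared groups alone gave 3, in vehicle mice no filter gave 3, and leaving out each library gave 2 to 8 and 2 to 6. Library totals moved the median of all genes by more than 0.1 only in adult vehicle IP over supernatant (-0.07, against 0.04) and its interaction with age (-0.07, against 0.04), and turned no direction.

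The numbers were taken as IP and supernatant pairs only in the replicate block. Over 23 pairs the correlation of deviations ran from -0.07 to 0.34, and 11 were over 0.1. Of the 23 IP libraries, 17 correlated best with the supernatant of their own number among those of their condition. Most libraries of one number thus went together, a pairing that the main fits did not use. The block, with 75 calls, changed no count by over 1.5 times. Of the results for single genes, 1836 kept their direction and side of the threshold, 91 lost and 6 gained a call, and 10 uncalled values changed sign. For young IP, DHT over vehicle, leaving out each library gave -0.37 to 0.044 for Rps27l and -0.32 to 0.099 for Rpsa, both highest without young vehicle IP replicate 6, and Rpsa was 0.071 by limma-voom and 0.055 without the last 10 sample numbers. For the interaction of treatment in young mice, it gave -0.33 to 0.11 for Rps27l and -0.34 to 0.10 for Rpl34, and limma-voom gave 0.040 and 0.0095. Rpl22 was 0.054 in young supernatants with only the last 10 sample numbers, and Rpl29 was 0.028 for adult over young DHT IP with the term. Counts were near 0 for Rpl3l, Rpl39l and Rpl10l.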
